A study of Mus musculus with 2 samples.

Results

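Imprinted genes are transcribed mainly from the copy inherited from 1 parent, and 10 of them with known activity in the pituitary are described here. They are Dlk1, Meg3, Rian, Mirg, Peg3, Kcnq1ot1, Cdkn1c, Gnas, Nnat and Ndn. They were picked by symbol and not by a cut on their values, with earlier results of these data known. Their Ensembl identifiers matched 10 of the 47069 genes in the count table. Of these, 4 lie on chromosome 12, 4 on chromosome 7 and 2 on chromosome 2.

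Imprinting is set in the germ line by DNA methylation, and many imprinted genes sit in clusters in which a long noncoding RNA from one parental copy is made beside protein-coding genes from the other. In the pituitary, imprinted genes are known from the control of growth, of hormone signalling and of the pool of progenitor cells: Gnas encodes the G protein subunit through which releasing-hormone receptors raise cyclic AMP, Cdkn1c takes dividing precursors out of the cell cycle, and Dlk1 and the noncoding RNAs beside it are made in hormone-producing cells. All mice were of the pure C57BL/6 strain, so reads from the parental copies could not be told apart, and the parent of origin named for a gene is background.

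Bulk RNA-seq of polyadenylated RNA was performed on 2 samples of acutely dissociated pituitary cells from randomly cycling C57BL/6 females aged 10 to 12 weeks. Each sample held 500000 to 700000 cells, with 5 pituitaries pooled. Cells were transferred without delay to RNA-Best, a fluid designed to preserve RNA together with whole single cells, or to RNAlater, an established RNA stabilizer that served as the reference. Glands had been dispersed with enzymes, and no sort is described, so each library mixes the cell types of the gland.

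Each group had 1 library, so the differences below have no replicate check and no test between stabilizers could be made. The RNA-Best library held 53915047 counts and the RNAlater library 44917492, and levels are given as CPM, the count scaled to a library total of 1000000. The intervals given are 95% and exact. They cover counting error only, since there was no replicate. The reads carry no molecular identifiers, so copies of 1 molecule could not be told apart. Hormone genes of all 5 endocrine lineages were found in both libraries, with Prl, the prolactin gene, at 235654 CPM in RNA-Best and 172302 in RNAlater.

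Cell markers were not equal between the libraries. Summed levels of endocrine markers were higher in RNA-Best in each lineage. They were 774 and 552 CPM for gonadotropes in RNA-Best and RNAlater, 9684 and 6966 for corticotropes and melanotropes, and 94.0 and 81.3 for thyrotropes. Somatotropes had 61101 and 59470 CPM, and lactotropes were represented by Prl alone. Single markers differed in both directions. Lower in RNA-Best were 1 of 4 gonadotrope, 1 of 3 corticotrope and melanotrope, 1 of 2 thyrotrope and 1 of 2 somatotrope markers. Cga had 542 CPM in RNA-Best and 358 in RNAlater, and Ghrhr 61.1 and 91.4 CPM. Markers of non-endocrine cells were mostly lower in RNA-Best. All 10 endothelial markers were lower in RNA-Best, with summed levels of 424 and 847 CPM in RNA-Best and RNAlater, as were all 10 pericyte and fibroblast markers (608 and 815 CPM) and all 7 posterior lobe markers (131 and 243 CPM). Of 8 stem and folliculostellate markers 7 were lower (275 and 394 CPM), and of 10 macrophage markers 6 (220 and 212 CPM). Most genes were lower in RNA-Best, and below the median ratio of all genes stood 8 of the 10 endothelial, 8 of the 10 pericyte and fibroblast, all 7 posterior lobe, 5 of the 8 stem and folliculostellate and 6 of the 10 macrophage markers. In bulk RNA, fewer cells of a type and less RNA per cell cannot be told apart. Ratios also ran with transcript length, as described below, and the markers were not set against genes of like length. The part of these cells in the values below was not tested.

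Sequences of 2 kinds belong to how these genes were measured, and both come from RefSeq on GRCm38.p6. The noncoding RNAs Meg3 and Mirg carry microRNA hairpins inside their exons, so a read from such an exon can lie on both a microRNA gene and its host. Mature microRNAs from 5 of these hairpins, not every arm, are shown, 5′ to 3′, with the seed (bases 2 to 8, which pair with target mRNAs) in capitals. miR-494-5p, whose gene lies in the same cluster outside the host genes, is added because it has the seed of miR-410-5p.
miR-770-5p (Meg3 exon, chr12:109563710-109563731, plus strand): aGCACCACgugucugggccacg
miR-770-3p (Meg3 exon, chr12:109563744-109563765, plus strand): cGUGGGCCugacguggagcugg
miR-134-5p (Mirg exon, chr12:109734145-109734166, plus strand): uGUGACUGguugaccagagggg
miR-485-3p (Mirg exon, chr12:109734946-109734967, plus strand): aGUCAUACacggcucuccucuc
miR-377-3p (Mirg exon, chr12:109740553-109740574, plus strand): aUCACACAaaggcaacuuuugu
miR-410-5p (Mirg exon, chr12:109743729-109743749, plus strand): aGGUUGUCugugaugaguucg
miR-410-3p (Mirg exon, chr12:109743764-109743784, plus strand): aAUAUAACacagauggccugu
miR-494-5p (between host genes, chr12:109715334-109715355, plus strand): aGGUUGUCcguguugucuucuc

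Gnas is read from several start sites whose transcripts share downstream exons, and the table gives 1 count for them all. The 250 bases before its most upstream and its most downstream start in the RefSeq promoter table are shown, with each CG dinucleotide, the base pair step at which mammalian DNA is methylated, in capitals.
Gnas upstream start (chr2:174284070-174284319, plus strand): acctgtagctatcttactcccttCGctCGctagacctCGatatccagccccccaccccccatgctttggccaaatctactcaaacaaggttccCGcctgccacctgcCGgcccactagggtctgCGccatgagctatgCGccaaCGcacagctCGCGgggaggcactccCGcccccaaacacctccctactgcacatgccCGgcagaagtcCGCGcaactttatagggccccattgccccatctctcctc
Gnas downstream start (chr2:174329756-174330005, plus strand): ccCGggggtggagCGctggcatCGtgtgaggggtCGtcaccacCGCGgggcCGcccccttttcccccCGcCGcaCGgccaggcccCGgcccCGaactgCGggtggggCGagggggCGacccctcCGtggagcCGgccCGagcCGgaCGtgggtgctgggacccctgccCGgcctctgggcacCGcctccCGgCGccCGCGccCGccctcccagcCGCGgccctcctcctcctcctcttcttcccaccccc

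The upstream Gnas window held 14 CG and the downstream window 29. CG reads the same on both strands. Of all 32851 promoter windows of this length, 29.4% held at least 14 and 6.78% at least 29. RefSeq windows were found for 9 of the 10 genes, 13 windows in all, with a median of 10 CG against 6 over all windows. These windows are not independent. Gnas alone gave windows with 14, 21, 22 and 29 CG, and those with 21 and 22 largely overlap. The Mirg window, with 10 CG, lies inside the annotated gene. The window of Rian and 1 of Meg3 held none, as did 7.87% of all windows. Methylation was not measured.

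The 10 genes were all detected in both libraries, and together they took 0.749% (0.747 to 0.751%) of the RNA-Best counts and 0.765% (0.762 to 0.768%) of the RNAlater counts. The ratio of each gene is the log2 of its CPM in RNA-Best over that in RNAlater, with 0.5 CPM added to both. By this measure Kcnq1ot1, Nnat, Ndn and Rian were higher in RNA-Best, and Meg3, Peg3, Gnas, Cdkn1c, Dlk1 and Mirg were lower. The 4 of 10 that were higher stand beside a background of 33.0% of the 16504 genes tested, those whose mean level reached 1 CPM. None of the 10 passed 2-fold in either direction, against 0.273% of all genes at least 2-fold higher and 4.99% at least 2-fold lower.

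The median ratio of the 10 genes was −0.03, with single genes from −0.55 to 0.58. The median over all genes tested was −0.18, so a gene with equal CPM in both libraries stood above the middle of the transcriptome. Against that median, 7 of the 10 were above and Meg3, Peg3 and Gnas below. Other scalings moved the median of all genes to −0.01 (TMM), −0.004 (DESeq2 size factors) or −0.06 (library total without Prl and Gh). Under each of these Dlk1, Mirg and Cdkn1c changed sign and were higher in RNA-Best, while the other 7 genes kept their direction.

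**Figure D1:**
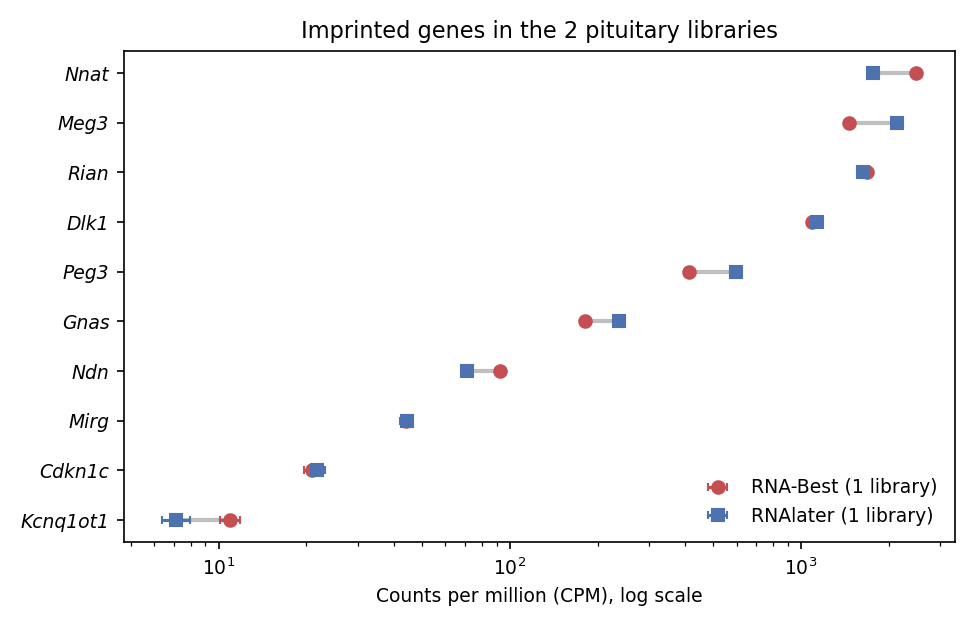
Level of each of the 10 imprinted genes in CPM (log scale), with 1 point per library (circle, RNA-Best; square, RNAlater) and 95% counting intervals where they are wider than the symbol. The points of Kcnq1ot1, Nnat, Meg3 and Peg3 stood clearly apart, Kcnq1ot1 and Nnat higher and Meg3 and Peg3 lower in RNA-Best. Those of Dlk1, Rian, Mirg and Cdkn1c nearly coincided.

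Levels of different genes can be compared only per length. In CPM per kb of exon, counted over all annotated exons of a gene, Nnat was first in both libraries with 1360 in RNA-Best and 963 in RNAlater. Dlk1 followed with 193 and 200 CPM per kb. Kcnq1ot1 was last with 0.117 and 0.0766 CPM per kb, over 93092 annotated bases. Meg3 and Rian changed places: Rian had 92.4 CPM per kb in RNA-Best against 80.9 for Meg3, and in RNAlater Meg3 had 118 against 89.7 for Rian. Per kb of the longest transcript Rian stood above Meg3 in both libraries. Ndn and Gnas changed places too: in RNAlater Gnas had 21.2 CPM per kb against 19.3 for Ndn, and in RNA-Best Gnas, at 16.1, stood below Ndn. Per kb of the longest transcript Gnas, with 45.8 in RNA-Best and 60.2 in RNAlater, stood above Ndn in both libraries.

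The genes of the Dlk1-Dio3 cluster on chromosome 12 did not keep one ratio. Dlk1, a transmembrane protein related to Notch ligands that is expressed from the paternal copy, lies at chr12:109452823-109463336 and was counted 58927 times in RNA-Best and 50827 times in RNAlater, or 1093 and 1132 CPM. Its ratio of −0.05 (−0.07 to −0.03) was small, although the interval did not hold 0. No annotated gene shares its exons.

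The 3 noncoding RNAs of the cluster lie downstream on the same strand and are expressed from the maternal copy. Meg3, which lies at chr12:109541001-109571726 and whose transcripts are largely retained in the nucleus, had 1463 CPM in RNA-Best and 2142 in RNAlater, a ratio of −0.55 (−0.56 to −0.54). Rian, the host of small nucleolar RNAs, lies at chr12:109603940-109661716 and had 1686 and 1636 CPM, a ratio of 0.04 (0.03 to 0.06). Mirg, the host of microRNAs at chr12:109729764-109749460, had 43.8 and 44.2 CPM. Its ratio of −0.01 (−0.10 to 0.08) could not be told from 0 by library total. With TMM scaling the ratio was 0.16 and with DESeq2 size factors 0.17.

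A read ratio of a pair of genes within a library does not depend on how the libraries are scaled, and can be set against the same ratio in the other library. There were 0.868 (0.860 to 0.876) Meg3 reads for each Rian read in RNA-Best and 1.31 (1.30 to 1.32) in RNAlater. Rian and Mirg kept their proportion within counting error, with 38.5 (36.9 to 40.1) Rian reads for each Mirg read in RNA-Best and 37.0 (35.4 to 38.7) in RNAlater. There were 33.4 Meg3 reads for each Mirg read in RNA-Best and 48.5 in RNAlater. Rian to Dlk1 differed less, but beyond counting error, with 1.54 (1.53 to 1.56) Rian reads for each Dlk1 read in RNA-Best and 1.45 (1.43 to 1.46) in RNAlater.

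The other protein-coding genes of the cluster were scarce. Rtl1, derived from a retrotransposon, had 4.61 CPM in RNA-Best and 8.98 in RNAlater, a ratio of −0.89. Dio3, the deiodinase that inactivates thyroid hormone, was counted 12 and 11 times.

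The genes annotated inside the hosts were counted by where they lay. Of 21 genes wholly inside exons of the 10 genes, 1 had any count, a small nucleolar RNA in Rian with 6 and 3 reads. Of 20 genes inside introns 14 had counts, with 126 reads in RNA-Best and 104.5 in RNAlater. The microRNA genes printed above for Meg3 and Mirg were all listed at 0. Over the whole cluster 18 of 67 microRNA genes had counts, with 32.5 and 31.5 reads in all. A library of polyadenylated RNA does not measure mature microRNAs, and the zeros say nothing of their levels.

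The mature microRNAs of the cluster differed in sequence. RefSeq gives 113 of them from 61 genes, with 104 distinct seeds, and 9 seeds were shared by 2 or more microRNAs, 18 in all. The seed of miR-410-5p and miR-494-5p printed above is such a case.

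Peg3 and Kcnq1ot1, both on chromosome 7 and known as paternally expressed, differed in opposite directions. Peg3, a paternally expressed zinc finger protein at chr7:6703892-6730431 on the minus strand, had 412 CPM in RNA-Best and 598 in RNAlater, a ratio of −0.54 (−0.56 to −0.51). Its neighbours were lower too, Usp29 with 6.81 and 7.93 CPM (−0.21) and Zim1 with 19.3 and 25.3 CPM (−0.39), so all 3 measured genes of this domain were lower in RNA-Best by CPM. These 3 also stood below the median of all genes, but above the median of genes of like length (6 to 10 kb), by 0.11 for Peg3, 0.26 for Zim1 and 0.45 for Usp29.

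Kcnq1ot1, a paternally expressed noncoding RNA that silences its neighbours in cis, is annotated as 1 exon at chr7:143203458-143296549 on the minus strand. It was counted 589 times in RNA-Best and 320 times in RNAlater, or 10.9 and 7.13 CPM. The ratio of 0.58 (0.42 to 0.82) was the highest of the 10 genes, and the 2 intervals of its CPM, 10.1 to 11.8 and 6.36 to 7.95, did not overlap. The interval of a ratio was computed without the 0.5 CPM added to the ratio itself.

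Kcnq1, the potassium channel gene that Kcnq1ot1 runs antisense to, had 4.97 CPM in RNA-Best and 7.93 in RNAlater, a ratio of −0.62. There were thus 2.20 (1.90 to 2.55) Kcnq1ot1 reads for each Kcnq1 read in RNA-Best and 0.900 (0.770 to 1.05) in RNAlater. It is not known whether the counting used strand, so reads from unspliced Kcnq1 RNA may be included in the Kcnq1ot1 count where they overlap.

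Cdkn1c, the cell cycle inhibitor p57 expressed from the maternal copy, lies at chr7:143458339-143461050 on the minus strand and had 20.8 CPM in RNA-Best and 21.7 in RNAlater. Its ratio of −0.06 (−0.18 to 0.07) held 0. Another annotated gene overlaps 30.7% of its exonic bases, and that gene was not among the genes counted. Of the other maternally expressed genes of the domain, Tssc4 was higher (71.7 and 57.2 CPM, 0.32), Osbpl5 lower (17.0 and 26.4 CPM, −0.62) and Cd81 near equal (202 and 209 CPM, −0.04). Slc22a18 had 1.11 and 1.54 CPM, Phlda2 was counted 34 and 51 times, and Ascl2 0 and 7 times.

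Nnat and Ndn, named for their expression in neural cells, were both higher in RNA-Best. Nnat, a small membrane protein of the endoplasmic reticulum at chr2:157560078-157562522, had 2487 CPM in RNA-Best and 1760 in RNAlater, a ratio of 0.50 (0.49 to 0.51). It lies within an intron of Blcap, which had 76.9 and 85.7 CPM (−0.16). There were 32.3 (31.4 to 33.4) Nnat reads for each Blcap read in RNA-Best and 20.5 (19.9 to 21.2) in RNAlater.

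Ndn, a single-exon gene of the Prader-Willi region at chr7:62346569-62350262 whose protein restrains growth, had 92.3 CPM in RNA-Best and 71.2 in RNAlater, a ratio of 0.37 (0.31 to 0.44). Snrpn, a splicing protein of the same region, had 41.5 and 39.5 CPM (0.07), and Ube3a, a ubiquitin ligase, had 51.4 and 60.7 CPM (−0.24). Of the other genes of the region, Magel2, Mkrn3 and Peg12 were at the edge of detection, counted 5 and 1, 2 and 10, and 16 and 16 times. Snurf was counted 0 and 0 times. It is annotated within the bounds of Snrpn, and how reads on overlapping genes were counted is not known. The 0 of Snurf therefore says nothing of its level. A count of 0 was otherwise read as allowing up to a fixed floor of 3 counts, or 0.0556 CPM in RNA-Best and 0.0668 in RNAlater. This floor is not an exact interval.

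Gnas, at chr2:174284320-174346744, had 181 CPM in RNA-Best and 238 in RNAlater, a ratio of −0.40 (−0.44 to −0.36). The annotation gives it 24 transcripts, and 22.0% of its exonic bases are shared with other genes. Nespas, the antisense RNA of the locus, was counted 40 and 47 times. The count sums maternal, paternal and biallelic transcripts, so the forms of Gnas could not be told apart.

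The ratio ran with transcript length across the whole table, and the 10 genes were set against genes of like length. Over 16443 genes, Spearman's rho between the ratio and the length of the longest annotated transcript was −0.64. Genes were placed in 7 length classes, whose median ratio went from 0.28 up to 1 kb to −0.90 over 10 kb. This is a description across genes of the same 2 libraries.

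Of the 10 genes, 8 stood above the median of their length class, by a median of 0.35 over all 10, and Gnas and Cdkn1c stood below. The count was 7 with the median transcript, 9 with the summed exons and 8 with a smooth trend on length, and the median difference was then 0.07, 0.33 and 0.38. Kcnq1ot1 was 1.48 above the median of genes over 10 kb, and 99.7% of that class had a lower ratio. Rian was 0.69 above genes of 6 to 10 kb and above 96.4% of them, but only 0.05 above its class, and above 54.9% of it, by its median transcript. Ndn was 0.60 above genes of 3 to 4 kb and Nnat 0.43 above genes of 1 to 2 kb, with 97.9% and 93.2% of their classes lower.

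The place of Meg3 depended on the transcript too. By its longest transcript of 14548 bases it stood 0.35 above its class, and by its median transcript 0.54 below (−0.54). Peg3, although lower in RNA-Best, stood 0.11 above genes of 6 to 10 kb, and 60.8% of that class had a lower ratio. Gnas stood at −0.17 from its class and Cdkn1c at −0.13, with 29.5% and 35.3% of their classes lower. By summed exons Gnas was 0.24 above.

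**Figure D2:**
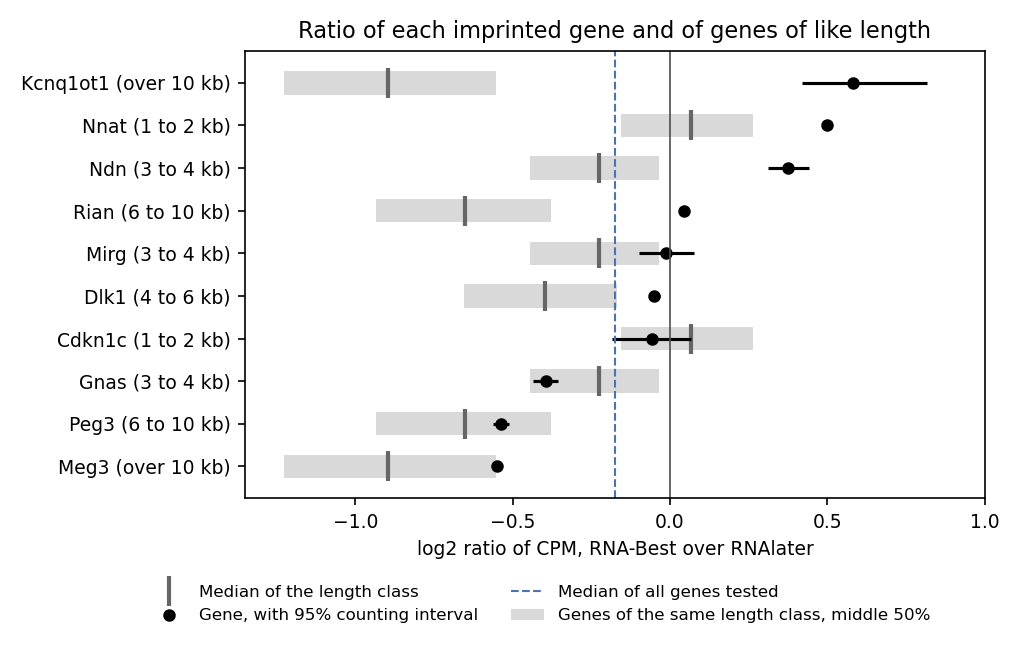
log2 ratio of CPM (RNA-Best over RNAlater) of each gene with its 95% counting interval (black), beside the median (tick) and middle 50% (grey bar) of all genes in the same length class. Kcnq1ot1, Nnat, Ndn, Rian, Mirg and Dlk1 lay to the right of the grey bar, whereas Gnas, Peg3 and Cdkn1c lay inside it and Meg3 at its upper edge. The dashed line marks the median of all genes, −0.18.

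Over the 10 genes, rho between ratio and length was −0.22, and without Kcnq1ot1 it was −0.68 (n = 9). The genes share their 2 libraries, and no test was made of this description. The noncoding genes had a median of 0.02 and the protein-coding genes of −0.05.

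**Figure D3:**
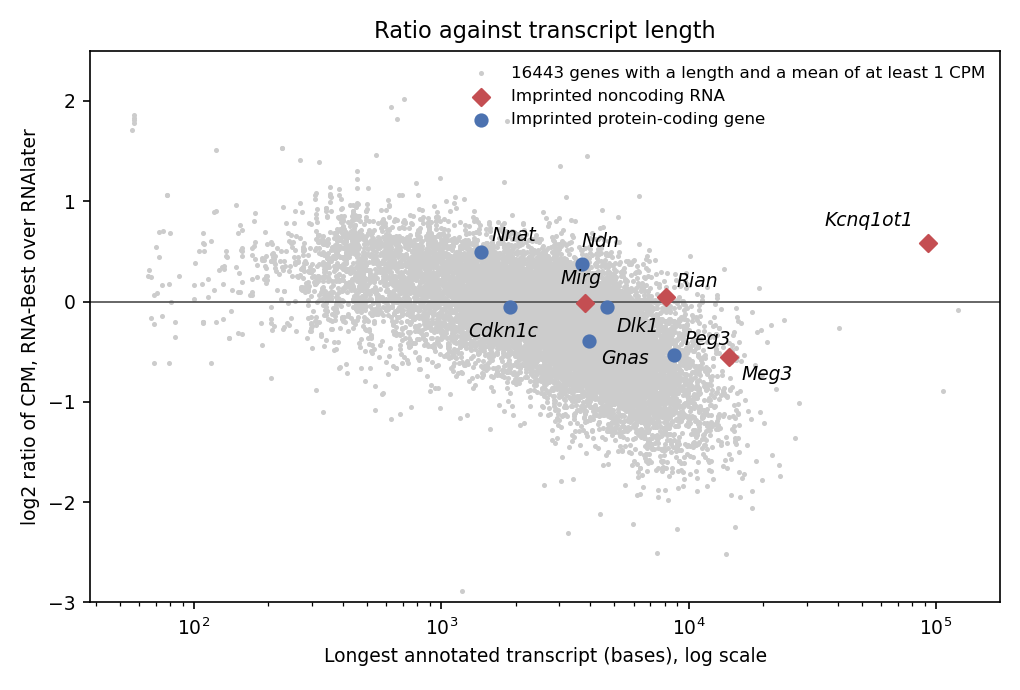
log2 ratio of CPM (RNA-Best over RNAlater) against the length of the longest annotated transcript (log scale) for 16443 genes (grey) and the 10 imprinted genes (diamonds, noncoding; circles, protein-coding). The grey cloud slopes down with length, and Kcnq1ot1 stands far to the right at a ratio of 0.58.

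A wider list of 57 imprinted genes was read in the same way. The table held 56 of them, and 45 reached a mean of 1 CPM. Of these 12 were higher and 33 lower in RNA-Best, with a median of −0.21 against −0.18 for all genes, and 21 stood above the all-gene median. Against genes of like length, 24 of the 45 stood above the median of their class, with a median difference of 0.06. Without the imprinted genes described above, 16 of the remaining 35 stood above it, with a median difference of −0.06. The place above genes of like length was thus not shared by the rest of the list. Genes known as paternally expressed were higher in 9 of 24, with a median of −0.16, and maternally expressed genes in 3 of 18, with a median of −0.29. Over all genes tested 33.0% were higher. None of the 45 was at least 2-fold higher and 2 were at least 2-fold lower, beside 0.273% and 4.99% of all genes.

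The lowest ratios among genes of this list with a mean above 10 CPM were those of Igf2r, Peg10 and Plagl1. Igf2r, the receptor that clears IGF2, had 31.2 CPM in RNA-Best and 74.3 in RNAlater (−1.24). Peg10, derived from a retrotransposon, had 87.4 and 164 CPM (−0.90), and Plagl1, a zinc finger regulator of growth, 274 and 487 CPM (−0.83). Igf2 itself was low and had 2.37 and 5.63 CPM (−1.09), and it is also made by the vascular and stromal cells whose markers were lower in RNA-Best. The part of those cells was not tested.

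Other abundant genes of the list were near the middle of the transcriptome or above it. Mest had 356 and 412 CPM (−0.21), Nap1l5 279 and 310 CPM (−0.15) and Impact 144 and 143 CPM (0.01). The highest ratio outside the 10 genes was that of Commd1, with 24.7 and 18.7 CPM (0.40).

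Igf2r has an antisense RNA that silences it in cis, Airn, as Kcnq1 has Kcnq1ot1. Airn had 9.74 CPM in RNA-Best and 9.71 in RNAlater. There were 0.312 (0.283 to 0.345) Airn reads for each Igf2r read in RNA-Best and 0.131 (0.118 to 0.144) in RNAlater. In both pairs the antisense RNA thus took a larger share of the reads in RNA-Best. Airn itself had near equal CPM in both libraries, while Igf2r was lower in RNA-Best. Airn was chosen after its values were seen, so this pair adds no support for a shared pattern. Nespas and Gnas were not compared in this way. Airn and Igf2r differ in annotated length, and the median ratio of genes of their classes was 0.07 (1 to 2 kb) and −0.65 (6 to 10 kb). Where the genes of a pair overlap, it is not known whether their reads were told apart by strand.

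**Figure D4:**
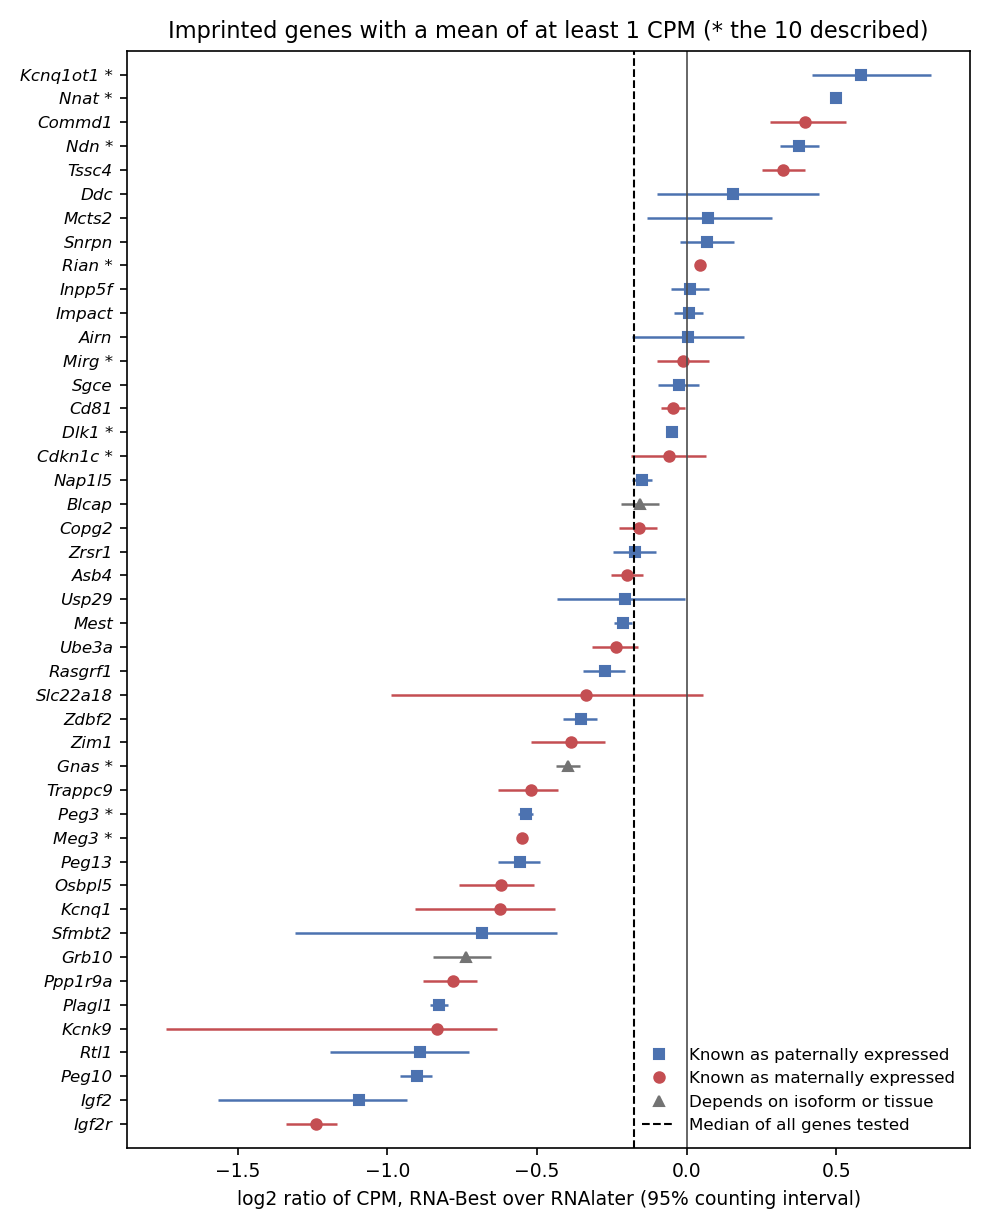
log2 ratio of CPM (RNA-Best over RNAlater) with 95% counting intervals for the 45 imprinted genes at or above a mean of 1 CPM, sorted by ratio (squares, known as paternally expressed; circles, maternally; triangles, dependent on isoform or tissue). The 10 genes described above (stars) spread over most of the range, from 0.58 to −0.55, and Igf2r was lowest at −1.24.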

How the data were processed

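Polyadenylated RNA of dissociated mouse pituitary cells was measured in 2 libraries, grouped by the stabilizer in the labels. The authors deposited estimated counts per gene, not normalized. Of the values above 0, 35.4% (RNA-Best) and 34.9% (RNAlater) were not whole, so some reads were divided, which makes genes with copies uncertain. How a read on overlapping genes was counted is not known, so such genes are uncertain too. The counting option and strand setting are not given in the sources used here. The submitters' processing notes name STAR 2.5.1b, featureCounts 1.5.0-p1 and the build mm10.

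Identifiers were matched without version to GENCODE M21 on GRCm38, and 46488 of 47069 (98.8%) matched. Counts were divided by the library total to give CPM. Ratios used a pseudocount of 0.5 CPM, which understates ratios of low genes, and a minimum mean of 1 CPM. Counts were rounded for exact binomial and Poisson intervals and before edgeR 4.0.16 and DESeq2 1.42.0 (R 4.3.3) gave scaling factors, used for alternatives only. Trends used LOWESS with a span of 0.2 (statsmodels 0.14.6). The steps were tested on simulated data. With 1 library per group no p-value was computed.

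The 10 genes and the lists were chosen with earlier results of these data known. Named beside them were genes of their domains, the 5 most abundant of the wider list, and its 3 highest and 3 lowest ratios at a mean of at least 10 CPM. Igf2 and Airn were chosen after their values were seen.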

Additional observations from a re-analysis of the deposited data

How the results depend on the processing

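The median log2 ratio of the 10 genes, −0.03 by library total, was 0.14 with TMM scaling, 0.15 with DESeq2 size factors and 0.10 with the total without Prl and Gh. Its distance from the median of all genes was 0.14 in the analysis as reported and 0.03 when all genes with any count formed that median. None of the 10 genes passed 2-fold under any scaling or pseudocount (0.1 or 1 CPM). In the wider list, 21 genes stood above the all-gene median as reported. Of its 2 genes at least 2-fold lower, Igf2r alone passed with TMM scaling, with DESeq2 size factors, with a pseudocount of 1 CPM and at a mean of at least 10 CPM, and 3 genes passed with a pseudocount of 0.1 CPM. The distance of a gene from its length class moved with the transcript chosen, with the median transcript from 0.35 to 0.09 for Dlk1 and from 0.69 to 0.05 for Rian, and from 0.35 to 0.07 for the median over the 10 genes. No paired analysis was possible because a single library stood for each stabilizer, without a number to pair it by, and no library could be left out. Depth limits Mirg and Cdkn1c, whose intervals held 0 by library total, although their ratios also moved with the scaling. It limits the scarce neighbours such as Dio3 and Magel2 too.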
